A study of Mus musculus with 8 samples.

Results

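Interferon response and antigen presentation genes were compared between 3 mouse neural stem cell (NSC) cultures and mouse embryonic fibroblasts. The set holds every named gene whose symbol is that of an MHC gene (H2), of the Ifi genes (Ifit and Ifitm included), of the Irf, Irgm, Gbp, Isg, Trim, Stat, Jak, Ifnar, Ifngr, Tap or Psme genes, or of Adar, B2m, Eif2ak2 or an immunoproteasome subunit. Membership went by symbol, and the brightest probe stood for each gene. Symbols were at hand only for probes with a detection p below 0.05 on 4 or more of the 8 arrays. Which genes could enter the set thus depended in part on the measured signal. The symbols matched 72 genes with 104 probes among 8576 named genes. Of the 72, 66 passed the filter on dim probes, against 8107 of the 8576 named genes. The named genes cover 11692 of the 25697 probes of the array, and shares of all genes called are over these 8107.

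Interferons are secreted proteins that bind paired receptors on the cell surface. The receptors switch on Jak kinases, which phosphorylate Stat proteins, and these enter the nucleus, in part together with Irf proteins, and raise a set of antiviral genes. Interferon-gamma in addition raises the machinery that shows peptides to T cells, in which the immunoproteasome cuts proteins, the Tap transporter moves the peptides into the endoplasmic reticulum, and an MHC class I heavy chain carries them to the surface with the light chain beta-2-microglobulin. Neural cells of the healthy brain are known for low levels of MHC class I.

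RNA was hybridised to 8 Illumina BeadChips, 2 per group. NSCs titled miPS-NSC (genotype OG2+/-, P8 in the sample name) are not explained in the labels, and their sample names read pips-NSC. Parthenogenetic NSCs (pNSC, OG2+/-, P18) derive from eggs that were activated with no sperm and so carry maternal genome copies only, and NSCs titled female (fNSC, OG2ROSA, P27) served as their counterpart. The fibroblasts (MEF) carry the label OG2+/-, whereas their column names read OG2ROSA1. All samples are labelled female, and the labels give the NSC medium with EGF and bFGF for every group. By label the genotype sets fNSC apart from the other groups. The P number differs among the NSC groups and is not given for MEF. Where they differ, neither can be told apart from group. The labels name no separate cultures. The p-values thus rest only on the spread between the 2 arrays of a group, pooled over the 4 groups and moderated by that of all genes. This spread may be technical.

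Signals are log2 values after background correction and quantile normalization, and a probe counted as detected on an array at a detection p under 0.01. Between 10553 and 10902 of 25697 probes were detected per array. Of the 72 genes, 53 and 51 were detected on the miPS-NSC arrays, 59 and 56 on the pNSC arrays, 58 and 56 on the fNSC arrays, and 55 and 55 on the MEF arrays. Within pairs of arrays, the log2 differences of the 66 genes had an SD of 0.308 in miPS-NSC, 0.258 in pNSC, 0.281 in fNSC and 0.192 in MEF. Of the 66 tested genes, 39 (59.1%) were detected on both arrays of all 4 groups, against 74.9% of all genes. Another 8 (12.1%, against 6.67% of all genes) passed the filter through 1 group alone, so that their differences partly follow from the filter. These were Trim40 through miPS-NSC, Ifi202b through pNSC, Psmb9 and Trim36 through fNSC, and Irgm2, Tapbpl, Trim35 and Trim56 through MEF. The 6 untested genes were H2-Eb2, H2-Q7, Psmb8, Trim44, Trim68 and Trim69.

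Of 12 neural stem cell markers 8 were named, and 1 of these, Prom1, was detected on 0 arrays and not tested. All 7 tested neural stem cell markers were detected on every NSC array and 3 of them on the MEF arrays. Their mean log2 signal was 9.03 and 9.30 on the miPS-NSC arrays, 10.26 and 10.34 on the pNSC arrays, 10.45 and 10.69 on the fNSC arrays, and 7.5 on both MEF arrays. Of 5 tested fibroblast markers, 3 were detected on the miPS-NSC arrays, 1 or 2 on the pNSC arrays, 2 on the fNSC arrays and 5 on the MEF arrays. Thy1 averaged 9.74 in miPS-NSC, 4.78 in pNSC, 4.95 in fNSC and 15.07 in MEF, and Twist1 averaged 9.32 in miPS-NSC, 5.06 in pNSC, 8.9 in fNSC and 10.3 in MEF. The other 3 fibroblast markers (Col1a2, Prrx1 and S100a4) gave -0.24, -0.89 and -0.52 for miPS-NSC minus pNSC, and the median of all 5 was -0.24 for miPS-NSC minus pNSC and -0.36 for miPS-NSC minus fNSC. The 4 tested astrocyte markers had a mean of 11.1 and 11.15 on the miPS-NSC arrays, 11.03 and 11.09 on the pNSC arrays, 10.0 and 10.07 on the fNSC arrays, and 8.54 and 8.72 on the MEF arrays. Gfap, detected on 1 array, was not tested. Of 14 microglia and macrophage markers only Aif1 was named here. It was detected on 2 of 8 arrays and not tested. Kdr alone of 6 endothelial markers was named, detected on 1 array, and 0 of 6 B and T cell markers were named. The part of these cell types in the results was not tested. In such bulk RNA, fewer cells of a type and less RNA per cell cannot be told apart.

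Promoters of 6 genes are shown because their genes carry the largest effector change (Ifitm3, with its relative Ifitm2) show the interferon-stimulated response element in genes that moved (Ifit3, Gbp2, B2m), or belong to a gene near background (Tap1). Each is the stretch of 250 bases before the annotated start (RefSeq, build GRCm38.p6, 5′ to 3′ on the strand of the gene), and capitals mark matches to the core of the interferon-stimulated response element (ISRE) on either strand. The windows are Ifitm3 at chr7:141010745-141010994 (minus strand), Ifitm2 at chr7:140955962-140956211 (minus), Ifit3 at chr19:34583279-34583528 (plus), Gbp2 at chr3:142620413-142620662 (plus), B2m at chr2:122147437-122147686 (plus) and Tap1 at chr17:34187306-34187555 (plus).
Ifitm3: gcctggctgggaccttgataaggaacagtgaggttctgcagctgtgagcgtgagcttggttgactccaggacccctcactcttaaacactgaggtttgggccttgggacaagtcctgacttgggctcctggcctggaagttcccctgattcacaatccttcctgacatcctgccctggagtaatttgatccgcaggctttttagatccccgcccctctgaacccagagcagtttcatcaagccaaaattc
Ifitm2: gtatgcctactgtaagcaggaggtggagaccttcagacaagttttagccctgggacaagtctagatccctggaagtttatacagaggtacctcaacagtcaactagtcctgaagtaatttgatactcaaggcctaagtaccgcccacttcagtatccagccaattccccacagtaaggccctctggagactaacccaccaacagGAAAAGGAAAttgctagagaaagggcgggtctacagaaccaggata
Ifit3: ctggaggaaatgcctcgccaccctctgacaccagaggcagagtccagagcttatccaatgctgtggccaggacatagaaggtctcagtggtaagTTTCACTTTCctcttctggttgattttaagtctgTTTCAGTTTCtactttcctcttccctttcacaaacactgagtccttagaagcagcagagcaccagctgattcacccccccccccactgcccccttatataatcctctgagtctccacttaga
Gbp2: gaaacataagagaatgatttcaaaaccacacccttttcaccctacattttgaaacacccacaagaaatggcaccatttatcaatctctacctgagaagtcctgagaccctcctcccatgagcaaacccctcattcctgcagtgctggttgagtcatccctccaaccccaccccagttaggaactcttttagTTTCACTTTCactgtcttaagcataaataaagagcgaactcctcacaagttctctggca
B2m: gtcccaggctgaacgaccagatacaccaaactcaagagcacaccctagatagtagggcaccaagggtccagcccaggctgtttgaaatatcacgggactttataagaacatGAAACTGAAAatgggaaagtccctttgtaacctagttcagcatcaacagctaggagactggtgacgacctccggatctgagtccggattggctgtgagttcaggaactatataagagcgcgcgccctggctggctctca
Tap1: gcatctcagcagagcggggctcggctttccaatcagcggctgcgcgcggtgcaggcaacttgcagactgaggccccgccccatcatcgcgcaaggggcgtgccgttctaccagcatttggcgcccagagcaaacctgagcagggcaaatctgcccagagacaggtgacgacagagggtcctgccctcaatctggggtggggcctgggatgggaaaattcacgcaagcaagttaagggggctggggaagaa

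Ifit3 held 2 such matches, Ifitm2, Gbp2 and B2m held 1 each, and in the Ifitm3 and Tap1 windows these letters were not found. The Tap1 window shares 225 bases with that of Psmb9, which is read from the opposite strand. RefSeq promoters were matched for 59 of the 72 genes. An ISRE core lay in the windows of 10 of them (16.9%), namely B2m, Gbp2, Gbp3, H2-T23, Ifit3, Ifitm2, Irf2, Irgm1, Irgm2 and Stat2, against 936 of 27025 genes (3.46%) and 978 of 32851 promoters (2.98%). The Stat binding core TTCNNNGAA, which reads the same on both strands, lay in 12 of the 59 (20.3%), among them Eif2ak2, Ifi202b, Ifit2, Irf1 and H2-M3, against 2197 genes (8.13%). The 2 motifs overlapped in 0 windows of the set and in 18 windows overall. Of the 10 genes with an ISRE core, 0 were called between pNSC and fNSC (all genes 11.4%), 1 higher (Gbp2) and 1 lower (Ifit3) between miPS-NSC and pNSC (14.6%), and 1 higher (Gbp2) and 1 lower (Gbp3) between miPS-NSC and fNSC (14.1%). Against MEF, 3 were higher and 5 lower in miPS-NSC (all genes 42%), 2 higher and 4 lower in pNSC (43.4%), and 2 higher and 5 lower in fNSC (43.1%). A match describes the letters of a window and says nothing of binding.

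A gene was called at an adjusted p under 0.05 (limma, Benjamini-Hochberg over 8107 genes) and a change of at least 2-fold. In pNSC against fNSC, 13 of the 66 genes (19.7%) were called, 7 higher and 6 lower, where 11.4% of all genes were called (6.57% higher and 4.87% lower). Their median log2 difference was 0.15, against -0.01 over all genes. In miPS-NSC against pNSC, 17 (25.8%) were called, 4 higher and 13 lower, against 14.6% of all genes (7.64% higher and 6.99% lower), and the median was -0.09 against -0.03. Between miPS-NSC and fNSC, 17 (25.8%) were called, 5 higher and 12 lower, against 14.1% of all genes (8.5% higher and 5.61% lower), with a median of -0.08 against -0.04. These comparisons share arrays, so their counts are not independent of each other. At least 1 of the 3 called 26 of the 66 genes (39.4%), against 24.1% of all genes.

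The excess over all genes was smaller among genes detected on both arrays of both groups. There the calls were 5 of 48 genes (10.4%, against 8.07% of all such genes) for pNSC against fNSC, 9 of 46 (19.6%, against 11.2%) for miPS-NSC against pNSC, and 7 of 42 (16.7%, against 10.6%) for miPS-NSC against fNSC. With the authors' processed values, 8 of the 13 genes stayed called between pNSC and fNSC: Eif2ak2, H2-T10, Ifi202b, Ifi27l2a, Ifitm3, Trim2, Trim59 and Trim9 (6 higher and 2 lower, where 5.5% of all genes were called). In miPS-NSC against pNSC the same values kept Eif2ak2, Gbp2, H2-T10, Ifi202b, Ifit2, Ifitm3, Trim2 and Trim9 (2 higher and 6 lower, against 7.35% of all genes). In miPS-NSC against fNSC they kept Gbp2, H2-K1, Ifitm3 and Trim59, 2 higher and 2 lower, and those 4 of the 66 genes are no larger a share than the 6.98% of all genes called. Differences were smaller with the authors' processed values for 138 of the 143 calls in the 6 comparisons (median ratio 0.57 on the log2 scale), and for 89 of them the fold was over 1.5 times smaller. Every fold and every "at least" bound given here therefore belongs to the background-corrected scale.

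**Figure D1:**
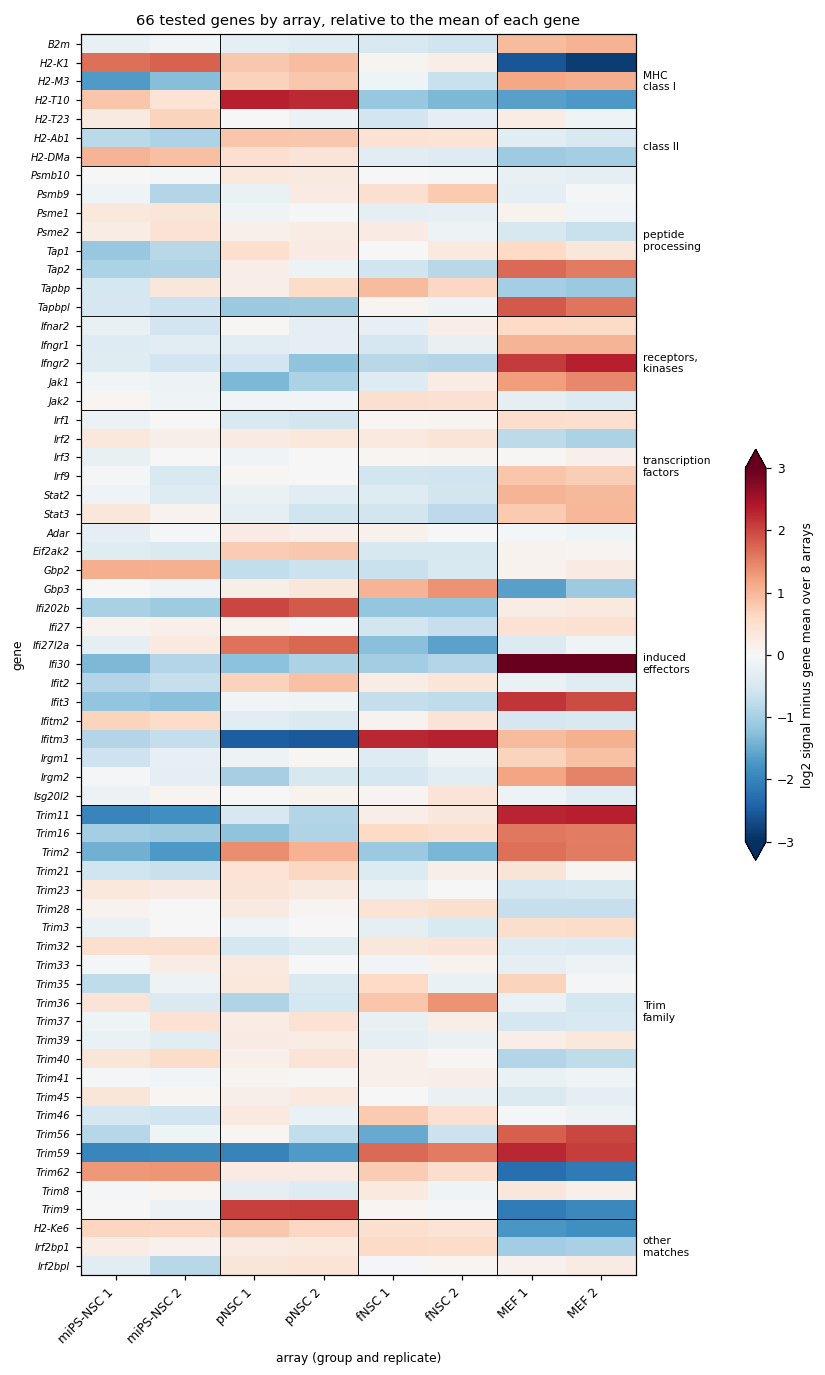
Log2 signal of the 66 tested genes (rows, grouped by role) on each of the 8 arrays (columns), relative to the mean of each gene over the arrays, with red for above and blue for below. Ifitm3 is deep blue on both pNSC arrays and deep red on both fNSC arrays, and Ifi30, Ifngr2 and Trim11 are red on the MEF arrays.

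**Figure D2:**
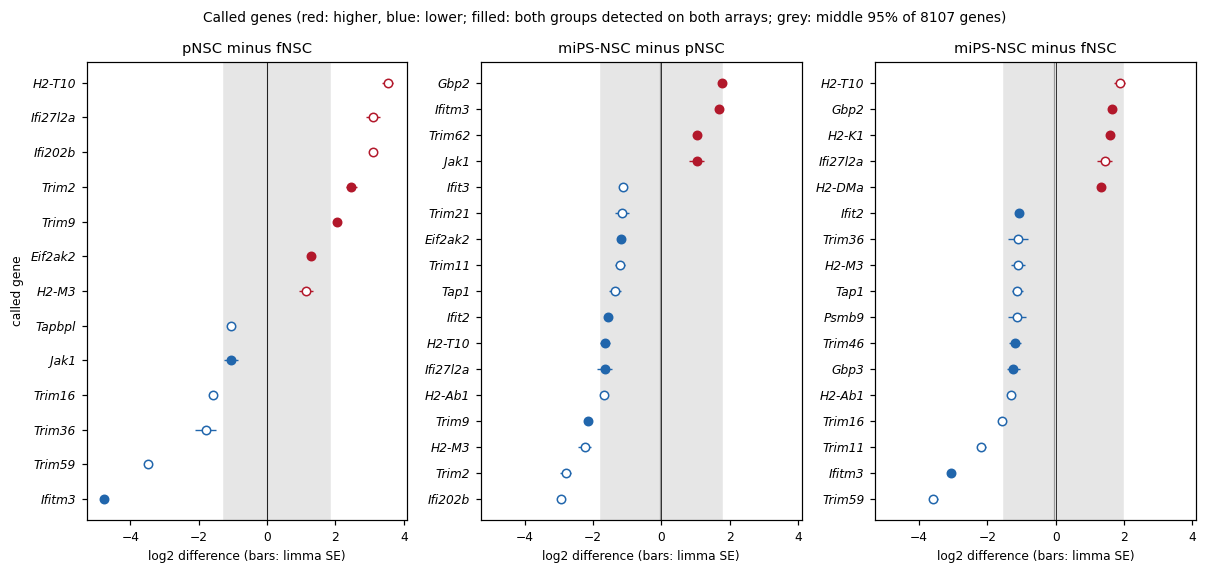
Log2 differences of the called genes in the 3 comparisons among NSC groups, with limma standard errors as bars, and the middle 95% of all 8107 genes in grey. Filled points mark genes detected on both arrays of both groups. Ifitm3 lies at -4.77 between pNSC and fNSC and at -3.07 between miPS-NSC and fNSC.

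Among the antiviral effectors, the transmembrane protein Ifitm3 changed most. This protein sits in endosomal membranes and blocks the entry of enveloped viruses. Its log2 signal was 11.79 and 11.94 in miPS-NSC, 10.19 and 10.14 in pNSC, 14.91 and 14.95 in fNSC, and 13.60 and 13.71 in MEF. No 2 of the 4 groups overlapped, with pNSC lowest and fNSC highest. The pNSC signal was 27.2-fold below that of fNSC (log2 difference -4.77, SE 0.0894, adjusted p = 2.3e-07). The miPS-NSC signal was 3.24-fold above pNSC (1.70, adjusted p = 1.07e-05) and 8.39-fold below fNSC (-3.07, adjusted p = 7.7e-07). Ifitm2, a close relative, differed less. It stood at 13.37 and 13.25 in miPS-NSC, 12.39 and 12.27 in pNSC, 12.81 and 13.09 in fNSC, and 12.21 and 12.26 in MEF, and was called in none of the NSC comparisons (-0.62 for pNSC minus fNSC and 0.97 for miPS-NSC minus pNSC).

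The Ifit proteins bind viral RNA with foreign ends. Ifit2 gave 8.51 and 8.68 in miPS-NSC, 10.07 and 10.26 in pNSC, 9.60 and 9.75 in fNSC, and 9.18 and 9.02 in MEF. The miPS-NSC arrays were the lowest of all, and the pNSC arrays the highest. Ifit2 was 2.97-fold lower in miPS-NSC than in pNSC (log2 difference -1.57, SE 0.115, adjusted p = 4.62e-05) and 2.12-fold lower than in fNSC (-1.08, adjusted p = 0.000288). The call against fNSC was lost at -0.99 without the first miPS-NSC array, while another Ifit2 probe gave -1.38. Ifit3 was not detected in miPS-NSC (5.91 and 5.84). It reached 7.02 and 6.97 in pNSC, 6.39 and 6.34 in fNSC, and 9.24 and 9.07 in MEF. Ifit3 was at least 1.74-fold lower in miPS-NSC than in pNSC (adjusted p = 7.74e-05), and in every NSC group it lay below MEF.

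Ifi202b, Ifi27l2a and Eif2ak2 shared a high point in pNSC. Ifi202b belongs to the DNA-binding Ifi200 family. It gave 7.88 and 7.72 in pNSC and was not detected on any array of miPS-NSC (4.90 and 4.81), fNSC (4.71 and 4.71) or MEF (6.09 and 6.15). Its signal was at least 3.01-fold higher in pNSC than in fNSC (log2 difference 3.09, SE 0.0892, adjusted p = 9.67e-07) and at least 3.04-fold lower in miPS-NSC than in pNSC. It passed the filter through pNSC alone, so these differences partly follow from the filter.

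Ifi27l2a, an interferon-induced member of the Ifi27 family, stood at 6.32 and 6.90 in miPS-NSC, 8.22 and 8.33 in pNSC, 5.36 and 5.0 in fNSC (not detected), and 6.19 and 6.48 in MEF (detected on 1 array). The pNSC arrays were above all others. It was at least 4.18-fold higher in pNSC than in fNSC (log2 difference 3.09, SE 0.211, adjusted p = 4.46e-05), 3.16-fold lower in miPS-NSC than in pNSC (adjusted p = 0.000612), and at least 1.32-fold higher in miPS-NSC than in fNSC (adjusted p = 0.00132). The authors' processed values gave 1.34 for pNSC minus fNSC, -0.87 for miPS-NSC minus pNSC and 0.47 for miPS-NSC minus fNSC, and only the first was still called. Eif2ak2 is the kinase PKR, which halts translation when it binds double-stranded RNA. It was detected on all 8 arrays, at 10.29 and 10.23 in miPS-NSC, 11.43 and 11.48 in pNSC, 10.17 and 10.17 in fNSC, and 10.77 and 10.75 in MEF. Eif2ak2 was 2.43-fold higher in pNSC than in fNSC (1.28, SE 0.0756, adjusted p = 2.19e-05) and 2.28-fold lower in miPS-NSC than in pNSC (-1.19, adjusted p = 2.58e-05). The difference of 0.09 between miPS-NSC and fNSC did not pass (adjusted p = 0.34).

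The guanylate-binding proteins Gbp2 and Gbp3 are GTPases that attack vacuoles of intracellular pathogens. Gbp2 was 9.63 and 9.6 in miPS-NSC, 7.80 and 7.90 in pNSC, 7.87 and 8.08 in fNSC, and 8.65 and 8.80 in MEF. Both miPS-NSC arrays lay above all the others. The signal was 3.4-fold higher in miPS-NSC than in pNSC (log2 difference 1.77, SE 0.105, adjusted p = 1.85e-05) and 3.11-fold higher than in fNSC (1.64, adjusted p = 2.45e-05). Gbp3 went the other way, at 7.93 and 7.83 in miPS-NSC, 8.11 and 8.27 in pNSC, 8.96 and 9.28 in fNSC, and 6.30 and 6.85 in MEF. It was 2.36-fold lower in miPS-NSC than in fNSC (-1.24, adjusted p = 0.00169), although its other probe gave -0.98. Of the 15 effectors, 3 were higher and 1 lower in pNSC against fNSC (all genes 6.57% and 4.87%), 2 higher and 5 lower in miPS-NSC against pNSC (all genes 7.64% and 6.99%), and 2 higher and 3 lower in miPS-NSC against fNSC (all genes 8.5% and 5.61%).

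Other effectors were called against MEF alone. Ifi30, a lysosomal reductase that prepares antigens for MHC class II, gave 5.84 and 6.31 in miPS-NSC, 5.96 and 6.25 in pNSC, 6.15 and 6.32 in fNSC, and 10.44 and 10.31 in MEF. It was 19.7-fold lower in miPS-NSC (detected there on 1 array), at least 17.9-fold lower in pNSC (detected on none) and 17.7-fold lower in fNSC. Irgm1, a GTPase of autophagy, was at 12.64 and 12.99 in miPS-NSC, 13.10 and 13.28 in pNSC, 12.86 and 13.11 in fNSC, and 13.91 and 14.12 in MEF. Irgm1 was called lower than MEF in miPS-NSC (-1.20) and in fNSC (-1.03), with -0.91 in fNSC without the first fNSC array. Its dimmer probe disagreed in size, with a mean of 6.35 in miPS-NSC against 8.84 in pNSC, a difference of -2.49 where the brighter probe had -0.37. Irgm2 was detected in MEF alone (7.31 and 7.6). Ifi27 stood between 11.06 and 12.21 on all arrays and was called lower than MEF in fNSC (-1.07), a call lost at -0.99 without the second fNSC array. The RNA editor Adar, at 8.28 to 8.80, and the nuclease Isg20l2, at 10.58 to 11.29, were called in none of the 6 comparisons.

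**Figure D3:**
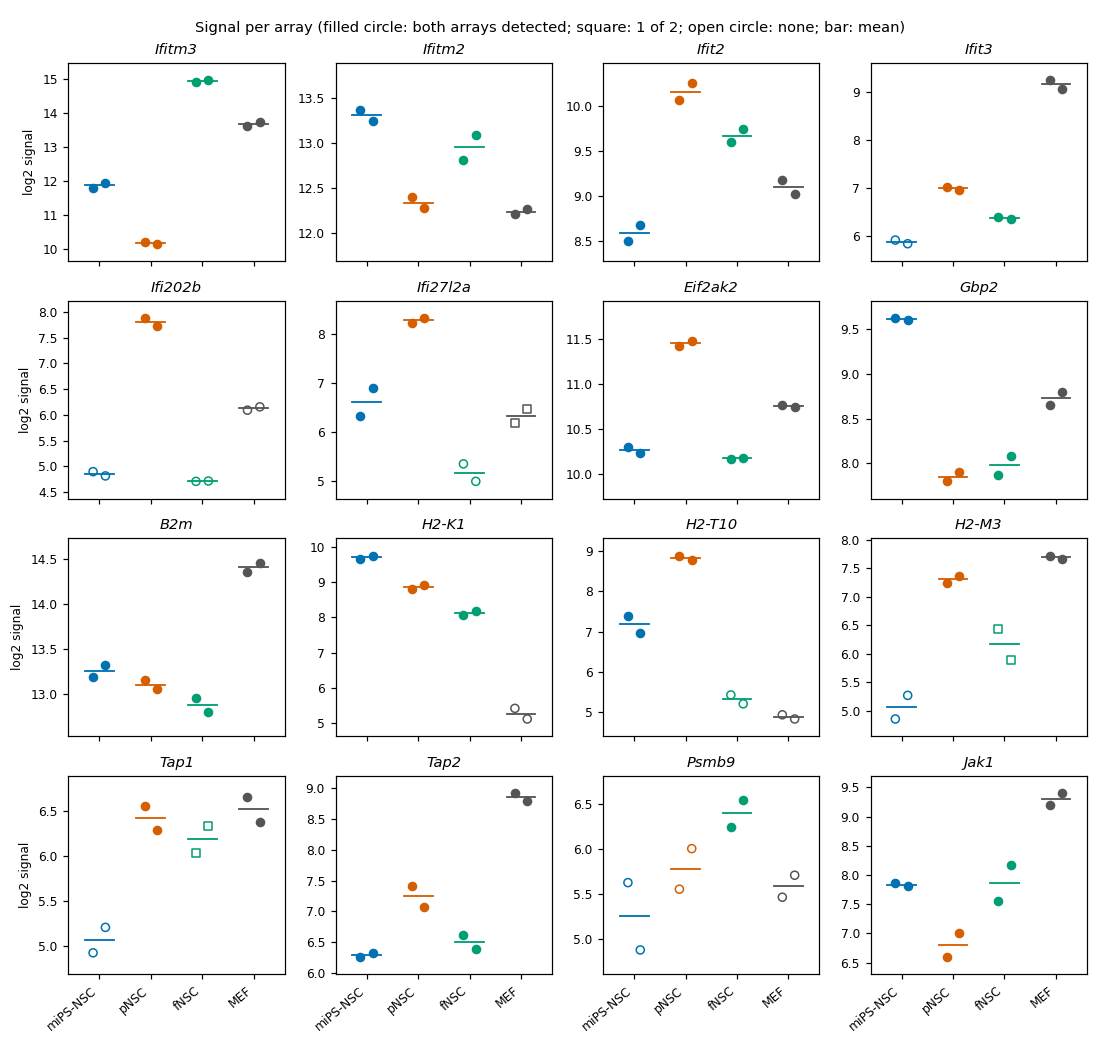
Log2 signal of 16 genes on each array, by group, with a bar at the mean of the 2 arrays. Filled circles mark groups detected on both arrays, squares on 1 and open circles on none. Ifi202b, Ifi27l2a, H2-T10 and Eif2ak2 are highest in pNSC, and Gbp2 and H2-K1 in miPS-NSC.

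MHC class I heavy chains differed gene by gene. These genes are close copies that vary among mouse strains, and whether each probe matches the alleles of each genotype was not tested. H2-K1, a classical heavy chain, gave 9.64 and 9.75 in miPS-NSC, 8.79 and 8.90 in pNSC, 8.05 and 8.17 in fNSC, and was not detected in MEF (5.42 and 5.12). The 4 groups did not overlap. It was 2.99-fold higher in miPS-NSC than in fNSC (log2 difference 1.58, SE 0.12, adjusted p = 5.71e-05). The steps of 0.85 between miPS-NSC and pNSC (adjusted p = 0.00103) and 0.73 between pNSC and fNSC (adjusted p = 0.00258) passed the p limit but fell short of 2-fold. Against MEF, H2-K1 was at least 10.9-fold higher in miPS-NSC, 6.06-fold in pNSC and 3.65-fold in fNSC, while the authors' processed values gave log2 differences of 2.26 in miPS-NSC, 1.58 in pNSC and 1.07 in fNSC.

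H2-T10, a non-classical class I gene that gamma delta T cells recognise, was highest in pNSC. It gave 7.40 and 6.98 in miPS-NSC, 8.89 and 8.79 in pNSC, and was not detected in fNSC (5.43 and 5.2) or in MEF (4.93 and 4.83). H2-T10 was at least 6.19-fold higher in pNSC than in fNSC (log2 difference 3.52, SE 0.151, adjusted p = 5.1e-06), 3.15-fold lower in miPS-NSC than in pNSC (-1.65, adjusted p = 0.000132), and at least 1.97-fold higher in miPS-NSC than in fNSC (adjusted p = 7.79e-05). The authors' processed values gave 1.69 for pNSC minus fNSC, -1.02 for miPS-NSC minus pNSC and 0.67 for miPS-NSC minus fNSC, the last no longer a call. H2-M3 presents formylated bacterial peptides. It was not detected in miPS-NSC (4.86 and 5.27), stood at 7.25 and 7.37 in pNSC, at 6.43 and 5.90 in fNSC (detected on 1 array), and at 7.73 and 7.66 in MEF. H2-M3 was at least 2.16-fold lower in miPS-NSC than in pNSC (adjusted p = 0.000115) and 2.21-fold higher in pNSC than in fNSC (log2 difference 1.14, SE 0.199, adjusted p = 0.00334). The pNSC minus fNSC difference was 0.88, below the call limit, without the second fNSC array, and 0.47 with the authors' processed values. In miPS-NSC against fNSC its difference of -1.10 was called, and lost at -0.83 without the first fNSC array and at -0.89 without the first miPS-NSC array.

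The light chain B2m varied little among the NSC groups, at 13.20 and 13.33 in miPS-NSC, 13.15 and 13.06 in pNSC, and 12.95 and 12.81 in fNSC, against 14.36 and 14.46 in MEF. It was 2.22-fold lower in miPS-NSC than in MEF, 2.47-fold lower in pNSC and 2.89-fold lower in fNSC (adjusted p = 5.44e-06 for fNSC). The light chain and the H2-K1 heavy chain thus moved in opposite directions against MEF. H2-T23, a non-classical gene, lay between 7.52 and 8.77 on all arrays and was never called. Over the 5 tested class I genes, 2 rose and 0 fell in pNSC against fNSC (all genes 6.57% and 4.87%), 0 rose and 2 fell in miPS-NSC against pNSC (7.64% and 6.99%), and 2 rose and 1 fell in miPS-NSC against fNSC (8.5% and 5.61%). The H2-M3 calls among these were lost with the authors' processed values, as was the rise of H2-T10 in miPS-NSC against fNSC (0.67).

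Class II genes, normally read in professional antigen-presenting cells, were dim but for H2-DMa, which helps load peptides on class II. H2-DMa gave 9.68 and 9.56 in miPS-NSC, 9.18 and 9.04 in pNSC, 8.34 and 8.28 in fNSC, and 7.6 and 7.66 in MEF. The groups did not overlap, and the miPS-NSC signal was 2.48-fold above that of fNSC (log2 difference 1.31, SE 0.0901, adjusted p = 3.42e-05) and 3.98-fold above that of MEF. H2-Ab1, the class II beta chain, was not detected in miPS-NSC (5.09 and 4.98) or MEF (5.58 and 5.45), and stood just above background in pNSC (6.73 and 6.71) and fNSC (6.34 and 6.32). It was at least 1.44-fold lower in miPS-NSC than in pNSC and at least 1.1-fold lower than in fNSC.

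Of the 8 tested genes that cut and move peptides, 0 were higher and 1 lower in pNSC against fNSC (all genes 6.57% and 4.87%). That call was Tapbpl, detected in neither group. In miPS-NSC against pNSC 0 were higher and 1 lower (7.64% and 6.99%), and in miPS-NSC against fNSC 0 were higher and 2 lower (8.5% and 5.61%). With the authors' processed values none of these calls was left. Tapbpl then gave -0.37 for pNSC minus fNSC. In miPS-NSC, Tap1 gave -0.43 against pNSC and -0.34 against fNSC, and Psmb9 gave -0.37 against fNSC. Tap1, a chain of the peptide transporter, was not detected in miPS-NSC (4.92 and 5.21), and gave 6.56 and 6.29 in pNSC, 6.03 and 6.34 in fNSC (detected on 1 array), and 6.66 and 6.38 in MEF. It was at least 1.17-fold lower in miPS-NSC than in pNSC (log2 difference -1.36, SE 0.168, adjusted p = 0.000529). Against fNSC its difference of -1.12 (adjusted p = 0.00143) was lost as a call at -0.97 without the second fNSC array and at -0.98 without the first miPS-NSC array. In pNSC against fNSC Tap1 did not pass (0.24, adjusted p = 0.279). Tap2, the other chain, stood at 6.27 and 6.32 in miPS-NSC, 7.42 and 7.07 in pNSC, 6.62 and 6.38 in fNSC, and 8.92 and 8.79 in MEF. It was 5.9-fold lower in miPS-NSC than in MEF, 3.06-fold lower in pNSC and 5.11-fold lower in fNSC.

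The immunoproteasome subunit Psmb9 was detected in fNSC alone (6.24 and 6.55), through which it passed the filter. It read 5.63 and 4.88 in miPS-NSC, 5.55 and 6.01 in pNSC, and 5.47 and 5.71 in MEF. The difference of -1.14 (SE 0.266, adjusted p = 0.0103) between miPS-NSC and fNSC, at least 1.15-fold, had an adjusted p of 0.055 without the second fNSC array and a difference of -0.77 without the second miPS-NSC array. The sister subunit Psmb8 was detected on no array and Psmb10 stood between 9.60 and 10.17 on all 8, with no call. The proteasome activator Psme1 likewise lay between 10.62 and 11.26, and its partner Psme2 between 5.72 and 6.81, neither of them called. Tapbp (tapasin), which bridges Tap and class I, was not detected in MEF (5.16 and 5.06) and was at least 1.65-fold higher in fNSC (7.13 and 6.80) and at least 1.24-fold higher in pNSC (6.39 and 6.72). Its relative Tapbpl was detected in MEF alone (7.82 and 7.59). Tapbpl was called lower in pNSC than in fNSC (-1.06) with neither group detected, a call lost at -0.94 without the first fNSC array.

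**Figure D4:**
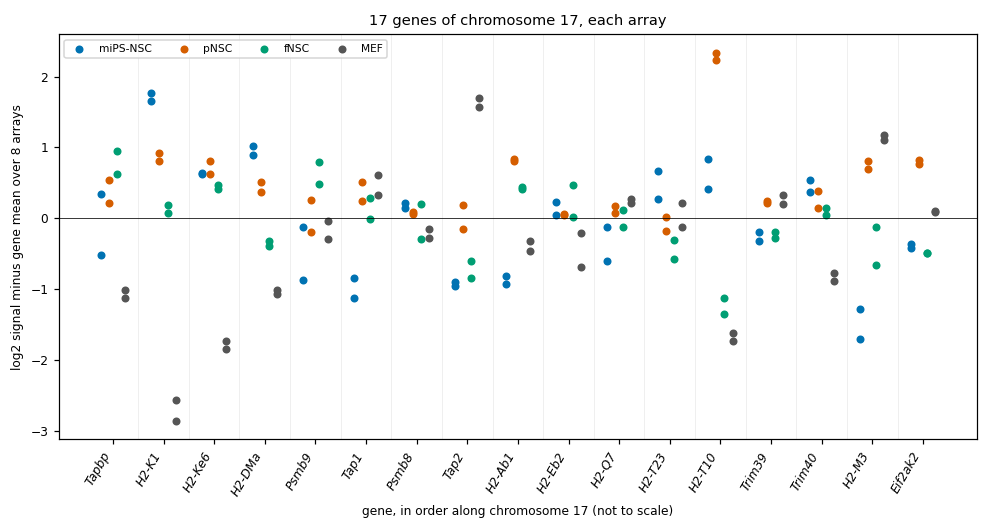
Log2 signal of the 17 genes of the set on mouse chromosome 17, in their order along it, per array and relative to the mean of each gene. Neighbours in the MHC region part ways: H2-K1 is lowest in MEF, Tap2 highest in MEF, and H2-T10 highest in pNSC.

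Of the 72 genes, 17 lie on chromosome 17, most of them in the MHC region. The 14 tested ones gave 3 higher and 0 lower calls in pNSC against fNSC (median 0.43, against 0.06 over all genes of this chromosome). They gave 0 higher and 5 lower in miPS-NSC against pNSC, and 3 higher and 4 lower in miPS-NSC against fNSC. Of all 391 tested genes of chromosome 17, 33 were higher and 18 lower in pNSC against fNSC. In miPS-NSC, 13 of the 391 were higher and 32 lower against pNSC, and 33 higher and 32 lower against fNSC. Chromosome 4 shifted as a whole between pNSC and fNSC, with 112 of 493 genes (22.7%) lower and a median of -0.70. Jak1, Trim32 and Trim62 lie there, with a median of -0.81. In miPS-NSC against pNSC, where Jak1 and Trim62 were called higher, the median was 0.63 over all genes of chromosome 4 and 1.03 over these 3. On chromosome 19, which holds Ifit2, Ifit3, Jak2 and Trim8, the median between pNSC and fNSC was -0.47 over all its genes and 0.04 over these 4. In miPS-NSC against fNSC, where Ifit2 was called lower, it was -0.495 over all its genes and -0.503 over these 4. In miPS-NSC against pNSC, where Ifit2 and Ifit3 were called lower, it was -0.05 over all its genes and -0.54 over these 4. Whether these chromosome-wide shifts bear on single genes was not tested.

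Of the 5 receptors and kinases, 3 were lower than MEF in each NSC group and 0 higher, where 17.2% to 17.6% of all genes were lower and 24.8% to 25.9% higher. Ifngr2, a chain of the interferon-gamma receptor, gave 7.49 and 7.28 in miPS-NSC, 7.29 and 6.65 in pNSC, 7.02 and 6.97 in fNSC, and 9.96 and 10.19 in MEF. It was 6.44-fold lower in miPS-NSC, 8.57-fold lower in pNSC and 8.45-fold lower in fNSC (adjusted p = 6.96e-06 for fNSC). The other chain, Ifngr1, stood at 8.48 and 8.51 in miPS-NSC, 8.54 and 8.57 in pNSC, 8.34 and 8.64 in fNSC, and 9.88 and 9.88 in MEF, or 2.61-fold lower in miPS-NSC, 2.5-fold lower in pNSC and 2.62-fold lower in fNSC. Ifnar2, of the type I receptor, lay between 6.07 and 7.23 and was not called. Ifnar1 was not analysed here.

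Jak1, the kinase that both receptors use, gave 7.87 and 7.80 in miPS-NSC, 6.6 and 7.0 in pNSC, 7.56 and 8.17 in fNSC, and 9.20 and 9.40 in MEF. Both pNSC arrays were lowest. Jak1 was 2.09-fold lower in pNSC than in fNSC (log2 difference -1.06, SE 0.215, adjusted p = 0.00653) and 2.05-fold higher in miPS-NSC than in pNSC (1.03, adjusted p = 0.00599). The call against fNSC was lost at -0.76 without the second fNSC array and at -0.86 without the first pNSC array. That between miPS-NSC and pNSC was lost at 0.83 without the first pNSC array and, just under the limit, at 0.9999 without the first miPS-NSC array. The authors' processed values gave -0.54 and 0.52 for the same contrasts. Against MEF, Jak1 was 2.76-fold lower in miPS-NSC, 5.64-fold lower in pNSC and 2.7-fold lower in fNSC. Jak2 stood between 9.96 and 10.86 and was never called.

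No transcription factor of the 6 tested was called among the NSC groups, where 11.4% to 14.6% of all genes were called per comparison. With only 6 genes, this is little different from the share of all genes. Irf2, which competes with Irf1 for the same elements, gave 12.41 and 12.28 in miPS-NSC, 12.35 and 12.42 in pNSC, 12.41 and 12.48 in fNSC, and 11.31 and 11.16 in MEF. It was 2.15-fold higher than MEF in miPS-NSC, 2.22-fold in pNSC and 2.31-fold in fNSC (adjusted p = 1.56e-05 for fNSC). Stat2, which acts with Irf9 in the type I response, stood at 6.54 and 6.26 in miPS-NSC, 6.45 and 6.30 in pNSC, 6.27 and 6.11 in fNSC (detected on 1 array), and 7.66 and 7.62 in MEF, 2.37-fold lower in miPS-NSC, 2.41-fold lower in pNSC and 2.74-fold lower in fNSC. With the authors' processed values the Stat2 differences were -0.67 in miPS-NSC, -0.68 in pNSC and -0.75 in fNSC, and no call was left. Irf9 was 2.03-fold lower in miPS-NSC and 2.56-fold lower in fNSC, and not called in pNSC (-0.76). Its call in miPS-NSC was lost at -0.81 without the second miPS-NSC array.

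Stat3, which answers cytokines of the interleukin-6 family, was 2.95-fold lower in fNSC than in MEF and 2.53-fold lower in pNSC by its brightest probe. Another Stat3 probe went the opposite way, at 8.97 in miPS-NSC, 8.85 in pNSC and 8.96 in fNSC against 7.53 in MEF, so that its direction is unsettled. Irf1, an early interferon target, stood between 9.65 and 10.29 on the NSC arrays and at 10.73 and 10.70 on the MEF arrays. It was called lower in pNSC against MEF alone (2.03-fold), where another probe gave -0.30. This call was lost at -0.96 without the second pNSC array and at -0.94 with the authors' processed values. Irf3, the factor behind interferon-beta itself, lay between 11.64 and 11.94 on the NSC arrays, with no call. Irf7 was not analysed here.

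**Figure D5:**
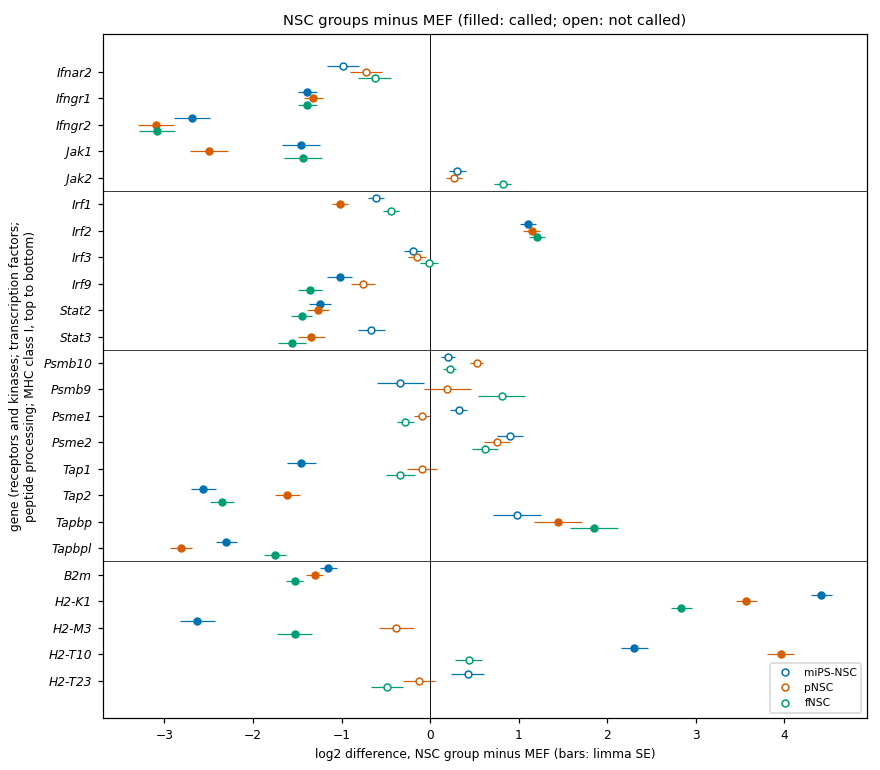
Log2 difference of each NSC group from MEF for receptors and kinases, transcription factors, peptide processing and MHC class I genes, with limma standard errors as bars. Filled points were called. Both interferon-gamma receptor chains, Tap2 and B2m lie left of 0 in all 3 NSC groups, and H2-K1 and Irf2 lie right of it.

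The comparison with MEF sets neural stem cells beside fibroblasts. In miPS-NSC, 32 of the 66 genes (48.5%) were called, 11 higher and 21 lower, against 42% of all genes (24.8% higher and 17.2% lower). In pNSC 32 (48.5%) were called, 15 higher and 17 lower, against 43.4% (25.8% higher and 17.6% lower), with 7 higher and 14 lower by the authors' processed values. In fNSC 32 (48.5%) were called, 11 higher and 21 lower, against 43.1% (25.9% higher and 17.2% lower). Among genes detected on both arrays of both groups, 6 were higher and 9 lower of 40 in miPS-NSC (37.5% called, against 34.5% of all such genes), 6 higher and 10 lower of 46 in pNSC (34.8%, against 36%), and 6 higher and 14 lower of 47 in fNSC (42.6%, against 35.2%). In all 3 NSC groups, 13 genes (19.7%, against 11.1% of all genes) were lower than MEF: B2m, Ifi30, Ifit3, Ifngr1, Ifngr2, Irgm2, Jak1, Stat2, Tap2, Tapbpl, Trim11, Trim16 and Trim56. Of these, Irgm2, Tapbpl and Trim56 passed the filter through MEF alone, so that their differences, and the share of 19.7%, partly follow from the filter. Another 7 (10.6%, against 16.8%) were higher in all 3: Gbp3, H2-K1, H2-Ke6, Irf2, Irf2bp1, Trim62 and Trim9. With the authors' processed values 9 of the 13 were called in all 3 groups, without Irgm2, Stat2, Tapbpl and Trim16, and 5 of the 7, without Trim62 and Trim9. The 3 comparisons share the MEF arrays. The median of all genes itself lay at 0.22 in miPS-NSC, 0.21 in pNSC and 0.25 in fNSC above MEF, and at 0.06 in miPS-NSC, 0.06 in pNSC and 0.07 in fNSC with the authors' processed values. The 66 genes had medians of -0.40 in miPS-NSC, -0.04 in pNSC and -0.17 in fNSC.

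Ifitm3 had calls in both directions against MEF, 3.47-fold lower in miPS-NSC (log2 difference -1.80), 11.3-fold lower in pNSC (-3.49) and 2.42-fold higher in fNSC (1.27). Ifit3 was at least 7.78-fold lower in miPS-NSC, 4.47-fold lower in pNSC and 6.91-fold lower in fNSC. Gbp3 was 2.46-fold higher in miPS-NSC, 3.05-fold in pNSC and 5.82-fold in fNSC. In pNSC, H2-T10 was at least 6.04-fold, Ifi27l2a 3.83-fold and Ifi202b at least 2.94-fold higher than MEF. With the authors' processed values these log2 differences were 1.77 for H2-T10, 0.85 for Ifi27l2a and 0.62 for Ifi202b, so that the calls of Ifi27l2a and Ifi202b were lost. In miPS-NSC, H2-T10 was at least 1.92-fold higher (0.75 by the authors' values, not called) and H2-M3 at least 2.82-fold lower, and Ifitm2 was 2.11-fold higher.

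The Trim family of ubiquitin ligases holds antiviral members beside many with other duties. Of 22 tested, 2 were higher and 3 lower in pNSC against fNSC (all genes 6.57% and 4.87%), 1 higher and 4 lower in miPS-NSC against pNSC (7.64% and 6.99%), and 0 higher and 5 lower in miPS-NSC against fNSC (8.5% and 5.61%). Trim59 was on in fNSC (8.33 and 8.21) and MEF (8.90 and 8.71), and was not detected in miPS-NSC (4.69 and 4.70) or pNSC (4.65 and 4.93). It was at least 4.16-fold lower in pNSC than in fNSC (log2 difference -3.48, SE 0.122, adjusted p = 2.19e-06) and at least 4.22-fold lower in miPS-NSC than in fNSC (adjusted p = 1.55e-06), with -1.57 in both contrasts by the authors' processed values.

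Trim9, a ligase of neurons, gave 6.79 and 6.60 in miPS-NSC, 8.83 and 8.85 in pNSC, 6.83 and 6.75 in fNSC, and was not detected in MEF (4.68 and 4.83). It was 4.15-fold higher in pNSC than in fNSC (log2 difference 2.05, SE 0.0998, adjusted p = 9.01e-06) and 4.41-fold lower in miPS-NSC than in pNSC (adjusted p = 6.1e-06), and its other 2 probes had the same directions. Trim2, a neuronal ligase too, stood at 6.5 and 6.22 in miPS-NSC (detected on 1 array), 9.34 and 8.97 in pNSC, 6.82 and 6.57 in fNSC, and 9.6 and 9.5 in MEF. It was 5.5-fold higher in pNSC than in fNSC (adjusted p = 3.51e-05) and 6.95-fold lower in miPS-NSC than in pNSC (adjusted p = 1.57e-05).

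Trim11 was not detected in miPS-NSC (4.95 and 5.08), was near background in pNSC (6.44 and 6.03, detected on 1 array), and stood at 7.12 and 7.26 in fNSC and 9.20 and 9.26 in MEF. Trim11 was at least 1.99-fold lower in miPS-NSC than in fNSC and at least 1.03-fold lower than in pNSC. Trim16 was detected in fNSC (7.21 and 7.08) and MEF (8.19 and 8.15) alone, and was at least 1.93-fold lower in miPS-NSC and at least 1.91-fold lower in pNSC than in fNSC. Trim36, which passed through fNSC alone (7.03 and 7.55), was at least 2.11-fold lower in pNSC (adjusted p = 0.00274). Its call in miPS-NSC against fNSC (-1.10, adjusted p = 0.0195) was lost at -0.84 without the second fNSC array and at -0.69 without the second miPS-NSC array. Trim46 was 2.28-fold lower in miPS-NSC than in fNSC, Trim21, an antibody receptor of the cytosol, 2.22-fold lower in miPS-NSC than in pNSC, and Trim62 2.07-fold higher in miPS-NSC than in pNSC.

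Against MEF, Trim62 (not detected there) was at least 8.35-fold higher in miPS-NSC, 4.03-fold in pNSC and 5.29-fold in fNSC, and Trim9 at least 1.37-fold in miPS-NSC, 6.04-fold in pNSC and 1.46-fold in fNSC. Lower than MEF were Trim11 (at least 8.19-fold in miPS-NSC, 7.96-fold in pNSC and 4.11-fold in fNSC), Trim2 (9.15-fold in miPS-NSC and 7.24-fold in fNSC), Trim16 (at least 3.93-fold in miPS-NSC and 3.88-fold in pNSC) and Trim59 (at least 6.12-fold in miPS-NSC and 6.04-fold in pNSC). Trim56, an antiviral ligase with 8.52 and 8.73 in MEF, was 5.28-fold lower in miPS-NSC and 4.75-fold lower in pNSC (each detected on 1 array), and at least 5.33-fold lower in fNSC. Trim56 passed the filter through MEF alone, so these differences partly follow from the filter. Trim28, the corepressor of endogenous retroviruses, was bright on all arrays (12.41 to 13.59) and 2.21-fold higher in fNSC than in MEF. Trim32 (12.12 to 13.11), Trim8 (11.64 to 12.35) and Trim41 (10.47 to 10.84) were never called.

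A further 3 genes share only a symbol with the families. H2-Ke6 encodes a steroid dehydrogenase rather than an MHC chain. It gave 12.71 and 12.70 in miPS-NSC, 12.88 and 12.70 in pNSC, 12.55 and 12.48 in fNSC, and 10.33 and 10.22 in MEF, and was 5.37-fold higher than MEF in miPS-NSC, 5.71-fold in pNSC and 4.71-fold in fNSC. Irf2bp1, an Irf2-binding corepressor, was 2.26-fold higher in miPS-NSC, 2.41-fold in pNSC and 2.97-fold in fNSC. Its relative Irf2bpl lay between 11.62 and 12.87 and was not called.

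Pathway genes outside these symbol families were read from a list of 60, of which 28 were named and 26 tested. In pNSC against fNSC 3 were higher and 0 lower, where 6.57% of all genes were higher and 4.87% lower. Samd9l, an interferon-induced antiviral gene, was 7.40 and 7.44 in miPS-NSC, 9.88 and 9.92 in pNSC, 6.46 and 6.81 in fNSC, and 10.07 and 10.05 in MEF, a 9.58-fold rise in pNSC over fNSC (adjusted p = 2.67e-06). Plscr1, a scramblase that interferon induces, gave 6.45 and 6.46 in miPS-NSC, 8.20 and 8.02 in pNSC, 6.20 and 5.91 in fNSC, and 8.30 and 8.33 in MEF, a 4.16-fold rise (adjusted p = 1.93e-05). Socs3, an inhibitor of Jak kinases, rose 2.16-fold.

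In miPS-NSC against pNSC (all genes 7.64% higher and 6.99% lower), Uba7, the enzyme that activates Isg15, was the 1 gene of the list higher (at least 1.98-fold), and 3 were lower: Samd9l (5.57-fold), Plscr1 (3.16-fold) and Parp12 (at least 1.45-fold). In miPS-NSC against fNSC (all genes 8.5% higher and 5.61% lower), 3 were higher (Lgals3bp 2.24-fold, Socs3 2.44-fold and Uba7 at least 1.99-fold) and 2 lower (Cmpk2 at least 2.24-fold and Parp12 at least 1.5-fold). Against MEF, 3 were higher and 9 lower in miPS-NSC, 3 higher and 7 lower in pNSC, and 4 higher and 8 lower in fNSC, where 24.8% to 25.9% of all genes were higher and 17.2% to 17.6% lower. Lgals3bp, a secreted glycoprotein that interferon induces, was 14.3-fold lower in miPS-NSC, 17.6-fold lower in pNSC and 31.9-fold lower in fNSC. Rsad2 (viperin), also induced by interferon, was at least 1.42-fold higher in miPS-NSC, 1.75-fold in pNSC and 1.21-fold in fNSC than in MEF, where it was not detected.

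Of the 66 genes, 20 (30.3%, against 39.4% of all genes) were called in none of the 6 comparisons. They include Irf3, Ifnar2 and Jak2, the proteasome genes Psmb10, Psme1 and Psme2, the class I gene H2-T23, and 10 Trim genes. A missing call does not show that levels were equal.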

How the data were processed

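Per the file headers, the deposited signal table holds the intensity of each of 25697 probes as a mean over beads, not normalized, for 8 arrays, with a detection p-value per probe and the number of beads (median 34 to 40). GenomeStudio 2009.2 is named in the submitters' processing notes. The authors deposited log2 values as well. These have equal quantiles, cover the 12421 probes whose detection p was below 0.05 on 4 or more of the 8 arrays, and correlated best with their own array (r 0.9975 to 0.9999 across probes); the sources used here do not give their background step. Gene symbols came from the platform annotation of those probes, so genes on in 1 group are mostly unnamed.

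Intensities were corrected with neqc (limma 3.58.1, R 4.3.3, with the package data.table, version 1.17.8; offset of 16, quantile normalization). Probes were kept if the detection p was below 0.01 for both arrays in 1 or more groups, and the brightest probe stood for a gene. The linear model (lmFit, eBayes) took in all 8 arrays (4 residual and 2.98 prior degrees of freedom), with two-sided p-values adjusted over 8107 genes, and the code was tested on simulated data. A fold is written "at least" where the dimmer group was detected on no array, set against the lowest detected signal (6.13 to 6.29, log2), and no fold was given between groups that were both undetected. The number of arrays limits the precision.

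Members, roles and lists were chosen with earlier results of these data known. Named with values were 5 marker genes (Ifitm3, Ifit2, H2-K1, Tap1, Psmb9), every gene called among NSC groups, the 8 largest calls per direction against MEF, and up to 4 of the brightest genes per role; pathway genes outside the families were named only where called. Arrays with the same title ending did not deviate together (correlations of the pair differences -0.0017 to 0.071), so they were not paired.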

Additional observations from a re-analysis of the deposited data

How the results depend on the processing

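All 143 gene calls kept their sign under every alternative, and 78 stayed called under every one. With the authors' processed values the calls numbered 8 (6 higher, 2 lower; 5.5% of all genes) between pNSC and fNSC, 8 (2 higher, 6 lower; 7.35%) between miPS-NSC and pNSC, 4 (2 higher, 2 lower; 6.98%) between miPS-NSC and fNSC, 21 (8 higher, 13 lower; 26.4%) between fNSC and MEF, and 21 (7 higher, 14 lower; 26.9%) between pNSC and MEF. Without background correction they numbered 8, 7, 4, 20 and 21 in the same comparisons. An offset of 50 gave 11 between miPS-NSC and pNSC and 9 between miPS-NSC and fNSC. Without a minimum fold the calls rose to 36 for pNSC against fNSC, 33 for miPS-NSC against pNSC, 34 for miPS-NSC against fNSC, and, against MEF, to 55 for miPS-NSC, 49 for pNSC and 56 for fNSC, where 45% to 79.7% of all genes were called. The cause was not tested, except that dropping a threshold adds calls by construction. Leaving out 1 array at a time gave 11 to 14, 17 to 19 and 15 to 17 calls among the NSC groups in that order. Against MEF it gave 31 to 36 for miPS-NSC, 29 to 32 for pNSC and 29 to 32 for fNSC. The replicate block on the title ending kept all 143 gene calls, with 13 calls for pNSC against fNSC, 17 for each of the others among NSC groups and 32 for each against MEF. A slide or scan block was not run, because the files used here name neither. Genes near the floor of detected signal have only bounds, as for Tap1, Psmb9, H2-M3, H2-Ab1 and Trim11 in miPS-NSC.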
